A study of Homo sapiens with 12 samples.

Results

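A group of 10 genes of the NODAL and transforming growth factor beta (TGF-beta) pathway was followed against the nuclear lamina of human embryonic stem cells. They were taken by name, as NODAL, GDF3, TGFB2, TDGF1, TGFBR3, TGFBR1, TGFBR2, ACVR2A, LEFTY1 and LEFTY2, and all 10 were found among the 19974 protein-coding genes annotated on the autosomes and X (TDGF1 under its present symbol, CRIPTO). The cells were H9, an established human embryonic stem cell line, grown without treatment either in RSeT medium (naive state) or in mTeSR medium (primed state). In pA-DamID an antibody to lamin B1 (LMNB1) brings a fusion of protein A and the Dam methylase to the lamina, where the enzyme marks adenines at GATC, and Dam-only libraries give the background of untethered enzyme. The series holds 12 libraries, 3 LMNB1 and 3 Dam-only for each state, and whether these stem from different cultures is not stated in the labels. From them the authors deposited 1 list of lamina-associated domains (LADs) per state, with 9178 LADs over 47.5% of the analysed genome in naive and 5671 LADs over 43.5% in primed. All LAD ends fell on multiples of 10 kb. With 1 list per state there is no replicate, so every value below describes these lists, and no difference between the states was tested. The lists give positions only, so the depth behind a LAD is unknown, gene expression was not measured here, and the labelled cell states could not be set against marker genes. Both states come from 1 cell line.

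Ligands of this family bring together type I and type II serine/threonine kinase receptors, which phosphorylate SMAD proteins that then enter the nucleus with SMAD4. NODAL and GDF3 signal through activin receptors with the help of the co-receptor encoded by TDGF1, and LEFTY1 and LEFTY2 encode secreted inhibitors of NODAL that the pathway itself induces. NODAL and activin signalling sustains pluripotency of primed human stem cells and patterns the early embryo. TGFB2 is a ligand of the TGFBR1 and TGFBR2 receptors, to which TGFBR3 (betaglycan), a proteoglycan of the cell surface, presents it.

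The promoters of 5 of these genes are given first, since they stand for the placements described below. They are the 250 bases before the annotated start (RefSeq, GRCh38.p14), of TGFBR3 (chr1:91886152-91886401, minus strand), in a LAD of the naive state only; of TGFB2 (chr1:218345086-218345335, plus strand), whose start lay next to a LAD edge in naive; of TGFBR2 (chr3:30606106-30606355, plus strand), deep inside LADs of both states; of ACVR2A (chr2:147844779-147845028, plus strand), in a LAD that ended within the gene; and of NODAL (chr10:70441682-70441931, minus strand), far from any LAD. Capitals mark GATC, the site that Dam methylates, and CAGAC or its reverse GTCTG, the short SMAD-binding box.
TGFBR3: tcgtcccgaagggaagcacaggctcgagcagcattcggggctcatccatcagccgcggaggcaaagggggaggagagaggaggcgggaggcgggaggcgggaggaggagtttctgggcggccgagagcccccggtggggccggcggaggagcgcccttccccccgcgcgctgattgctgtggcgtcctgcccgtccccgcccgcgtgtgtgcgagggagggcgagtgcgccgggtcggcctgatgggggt
TGFB2: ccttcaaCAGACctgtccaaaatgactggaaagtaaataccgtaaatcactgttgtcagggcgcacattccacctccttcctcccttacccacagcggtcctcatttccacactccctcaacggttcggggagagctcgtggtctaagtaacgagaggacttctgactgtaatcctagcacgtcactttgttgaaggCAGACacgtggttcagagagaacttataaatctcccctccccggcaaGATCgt
TGFBR2: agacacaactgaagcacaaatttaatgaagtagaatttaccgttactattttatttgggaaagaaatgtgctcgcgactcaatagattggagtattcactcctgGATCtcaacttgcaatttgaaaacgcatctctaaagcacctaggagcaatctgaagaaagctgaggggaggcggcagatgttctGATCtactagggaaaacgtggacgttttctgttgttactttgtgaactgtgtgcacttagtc
ACVR2A: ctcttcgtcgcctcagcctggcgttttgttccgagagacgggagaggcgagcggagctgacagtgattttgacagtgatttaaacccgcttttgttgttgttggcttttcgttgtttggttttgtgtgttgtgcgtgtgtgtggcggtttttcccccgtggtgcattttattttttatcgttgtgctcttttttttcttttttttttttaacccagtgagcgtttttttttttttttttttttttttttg
NODAL: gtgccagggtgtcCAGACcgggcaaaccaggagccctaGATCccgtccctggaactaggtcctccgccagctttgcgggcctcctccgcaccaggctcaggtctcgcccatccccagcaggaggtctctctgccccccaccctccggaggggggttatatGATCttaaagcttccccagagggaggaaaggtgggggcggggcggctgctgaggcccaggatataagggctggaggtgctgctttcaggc
TGFBR3 had no GATC and no SMAD box in this window, with 73.6% G or C and 28 CpG dinucleotides. TGFB2 had 1 GATC and 2 SMAD boxes (50.4% G or C, 11 CpG). TGFBR2 had 2 GATC and no SMAD box (40.8%, 7 CpG), ACVR2A had neither motif (40.8%, 14 CpG), and NODAL had 2 GATC and 1 SMAD box (65.2%, 9 CpG). Of the 15813 protein-coding genes with such a window, 34.0% held GATC and 36.7% the SMAD box on either strand, the motifs sharing no bases in the windows shown. The median G or C share was 54.8% for genes in LADs of both states, 58.8% for genes in naive LADs only and 63.6% for genes in neither, so TGFBR3 lay above, and TGFB2, TGFBR2 and ACVR2A below, the median of their class. The lists resolve 10 kb, so a motif in these windows says nothing about the lamina contact of these bases alone. RefSeq promoters matched 8 of the 10 genes, not LEFTY1 and LEFTY2, and where a gene had several starts (3 genes) the first listed was used. The windows of TGFBR3, ACVR2A and NODAL lie inside the annotated gene body, which reaches beyond the start used.

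TGFB2 and the receptor genes TGFBR2 and ACVR2A lay in LADs of both states, and TGFBR3 in a LAD of the naive state only. NODAL and GDF3, their co-receptor gene TDGF1, the inhibitors LEFTY1 and LEFTY2 and the receptor gene TGFBR1 lay outside LADs in both. A gene was placed in a LAD where at least 50% of its body was covered. In naive 4 of the 10 genes were in LADs (TGFB2, TGFBR3, TGFBR2 and ACVR2A), beside 18.9% of all protein-coding genes. In primed 3 were (TGFB2, TGFBR2 and ACVR2A), beside 17.3%. The 3 genes in both stand beside 15.4% of protein-coding genes, the 1 gene in naive LADs only beside 3.44%, and the 0 genes in primed LADs only beside 1.89%. With 10 genes, chosen with earlier results of these lists known, these counts describe the genes and are no sign of a property of the pathway. The remaining 6 genes had no covered base in either state, and 79.3% of protein-coding genes were in LADs of neither. Covered shares were equal in naive and primed for 9 of the 10 genes, the exception being TGFBR3. The median covered share was 0% in both states, over the 10 genes as over all protein-coding genes. The LAD share of the surrounding 1 Mb (500 kb either side of the middle of the gene) had a median of 10.4% in naive and 5.45% in primed over the 10 genes, against 0% in both over all protein-coding genes, whose upper quartile was 39.0% in naive and 24.1% in primed. The median falls between TGFBR1 and the 5 genes with no LAD in their 1 Mb, so it describes none of the 10 well.

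**Figure D1:**
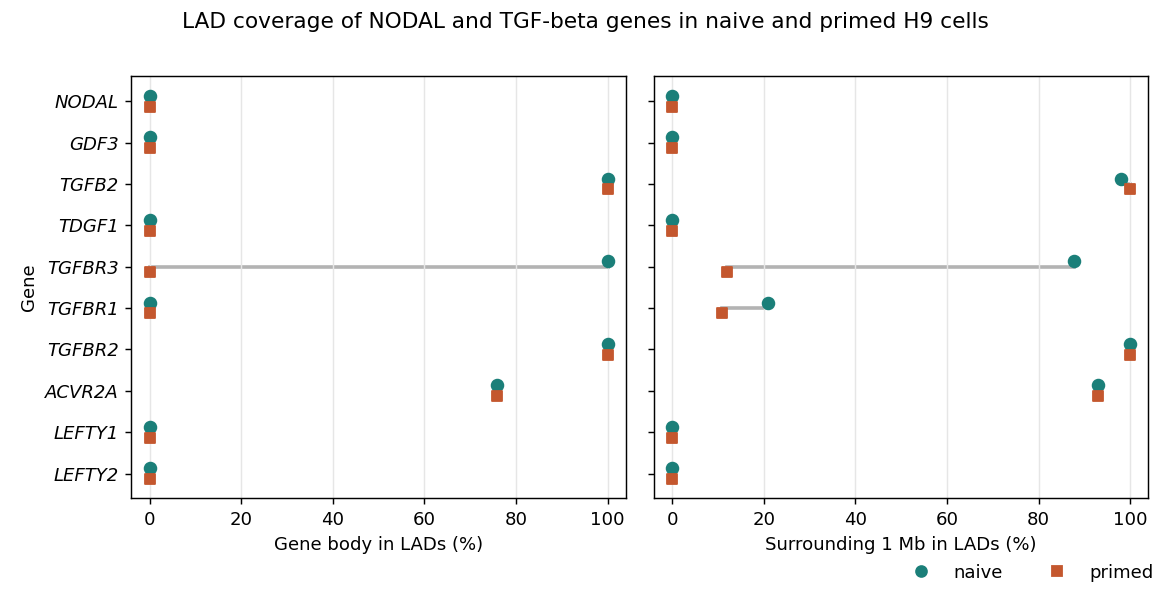
Share of each gene body (left) and of the 1 Mb around it (right) in LADs, in percent, with naive as circles and primed as squares and a line between them. TGFBR3 alone changed its gene body share (100% and 0%), and its surrounding 1 Mb was 87.7% in naive and 12.0% in primed, while TGFBR1 (20.9% and 10.9%) and TGFB2 (98.0% and 100%) differed in the surrounding 1 Mb alone.

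TGFBR3 encodes betaglycan, a co-receptor that binds TGF-beta ligands, TGFB2 above all, and that also binds inhibin. The gene spans 226 kb on chromosome 1 (91680343 to 91906002) and had 100% of its body in naive LADs but 0% in primed LADs. The naive LAD that holds it was 390 kb long (91540001 to 91930000), 39 windows of which 0 were in a primed LAD. The annotated start used for TGFBR3, the first listed, lay 43.9 kb inside that LAD and 19.9 kb inside the gene body. In primed the nearest LADs were a single 10 kb window 144 kb from the gene on its start side and a 30 kb LAD 280 kb away on the other side, which leaves a LAD-free stretch of 650 kb (91400001 to 92050000). Naive LADs covered 570 kb, or 87.7%, of that stretch. The change thus took in the whole gene with its surroundings: in the surrounding 1 Mb, 767 kb were in naive LADs only, 110 kb in LADs of both states and 10 kb in primed LADs only. The 1 Mb share of 87.7% in naive exceeded that of 12.0% in primed by 75.7 points. A difference at least as large in that direction was found for 67 of the 19974 protein-coding genes, TGFBR3 itself included.

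Most genes beside TGFBR3 were also in naive LADs only. Of 8 other protein-coding genes that reach into its 1 Mb, 5 lay in naive LADs only, 1 in LADs of both and 0 in primed LADs only. BRDT, a bromodomain gene of the male germ line 43.4 kb away, had covered shares of 100% in naive and 0% in primed. EPHX4, of the epoxide hydrolase family, was at 100% and 29.8%, C1orf146 at 100% and 0%, GLMN (glomulin) at 83.3% and 0%, and HFM1, a meiotic helicase gene, at 74.2% and 20.4%. BTBD8 was in LADs of both (81.2% and 76.6%). CDC7, which encodes a kinase that starts DNA replication, and SETSIP were at 0% in both. CDC7 thus marks a place inside the block that neither list called. Among the 163 genes at 100% in naive and at 0% in primed, 3 were longer than TGFBR3. On other chromosomes, the genes nearest to TGFBR3 in these 4 values (gene body and 1 Mb share in each state) were SLC28A3, a nucleoside transporter gene on chromosome 9 at a Euclidean distance of 1.70 percentage points, then LOC112268119 at 3.77 and LHFPL6 at 3.98, which overlap each other on chromosome 13. SLC28A3 was at 100% and 0%, with 86.0% and 11.8% of its 1 Mb in LADs. LOC112268119 was at 100% and 0%, with 90.5% and 9.48%. LHFPL6 was at 100% and 3.84%, with 88.0% and 13.0%.

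**Figure D2:**
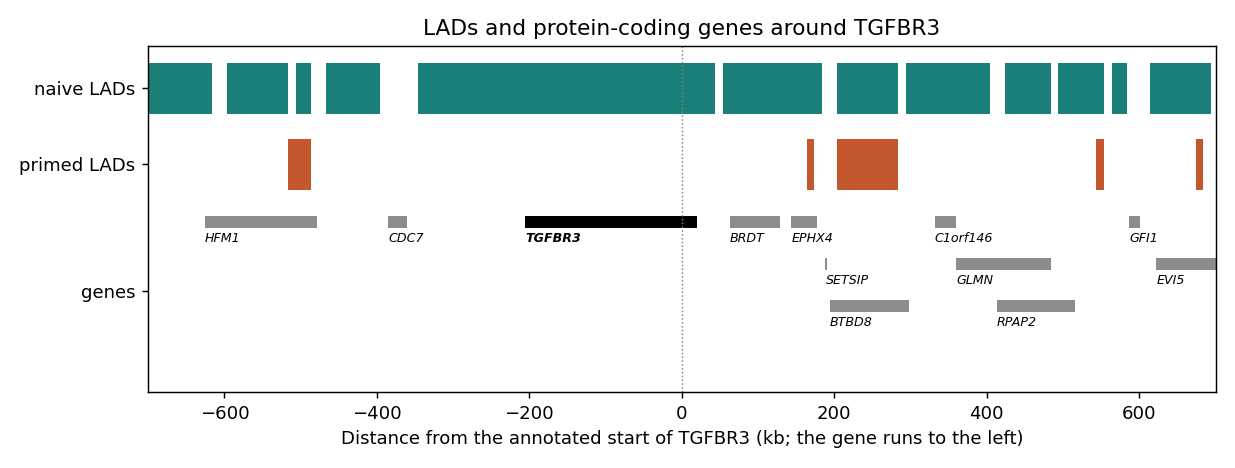
LADs of the naive list (upper bars) and of the primed list (lower bars) within 700 kb of the annotated start of TGFBR3, with protein-coding genes below. The x axis is the distance in kb from that start (dotted line), the first listed, which lies inside the gene body. TGFBR3, in black, spans -206 to 19.9 kb, inside a 390 kb naive LAD and in a primed LAD-free stretch of 650 kb.

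TGFB2, whose product is a ligand of the TGF-beta receptors with roles in heart and palate development, was covered at 100% in both states. The gene spans 99.3 kb on chromosome 1 (218345336 to 218444619). In primed it lay within a LAD of 5.40 Mb (214640001 to 220040000), with its start 1695 kb from the nearest edge. In naive the same DNA was cut into 3 LADs that held 99.4% of it, and the start of TGFB2 lay 5.34 kb inside the edge of a LAD of 1.70 Mb (218340001 to 220040000). The 10 kb window next to that edge was uncalled in naive, and beyond it lay a naive LAD of 160 kb. The LAD share of the surrounding 1 Mb was 98.0% in naive and 100% in primed. RRP15, a ribosome biogenesis gene and its upstream neighbour, was covered at 84.8% and 100%. Joining LADs less than 50 kb apart closed the naive breaks, and the 1 Mb share became 100% in both states.

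TGFBR2, the type II receptor that binds TGF-beta, was the most deeply placed of the 10 genes in naive, by the distance of its start from a LAD edge. It spans 87.8 kb on chromosome 3 (30606356 to 30694142), and it and its entire 1 Mb were covered at 100% in both states. Its start lay 914 kb from the nearest LAD edge in naive and 794 kb in primed, in LADs of 2.07 Mb and 2.98 Mb. These LADs held the same DNA for the most part: 99.0% of the naive one was in primed LADs and 99.7% of the primed one in naive LADs. GADL1 beside it was also at 100% in both.

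ACVR2A, an activin type II receptor through which NODAL, activins and GDF3 signal, had the end of a long LAD inside the gene in both states. It spans 86.3 kb on chromosome 2 (147844517 to 147930822). Its start lay in LADs of 3.39 Mb in naive and 3.37 Mb in primed, which ended 65.0 kb and 55.0 kb downstream of it, 1 window apart. The covered share was 75.9% in each state, but over partly different windows: 55.5 kb of the body were in LADs of both states, 10 kb in naive LADs only and 10 kb in primed LADs only, the last being a single-window LAD. The end of the gene, 10.8 kb, was in neither. The surrounding 1 Mb was covered at 93.0% in both states, by 3 naive and 6 primed LADs. ORC4, an origin recognition gene next to its end, was covered at 65.8% in both.

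TGFBR1, the type I receptor that acts with TGFBR2, was at 0% in both states, in contrast to TGFBR2. It spans 50.5 kb on chromosome 9 (99103647 to 99154192) and lay at the rim of a long LAD-free stretch, 11.2 Mb in naive and 7.46 Mb in primed. The nearest LAD, a single window in each list, was 166 kb downstream in naive and 256 kb in primed. The LAD share of its 1 Mb was 20.9% and 10.9%. The pieces hardly coincided: 160 kb were in naive LADs only, 60 kb in primed LADs only and 48.9 kb in both, and 4 of 9 naive and 4 of 6 primed LADs there were single windows. Of 6 neighbouring protein-coding genes, 0 were in LADs of either state. Without LADs under 100 kb the 1 Mb share was 0% in naive and 1.89% in primed, so which state had more turned with that filter.

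**Figure D3:**
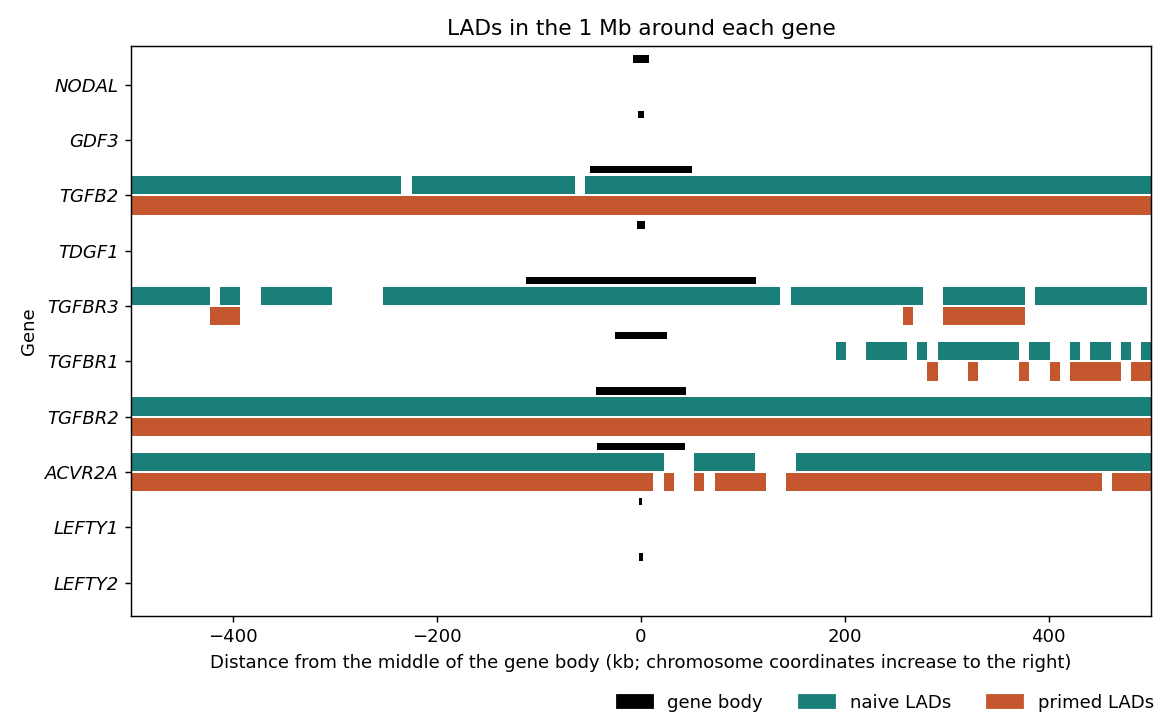
LADs in the 1 Mb around each gene, drawn as bars for naive (upper) and primed (lower), with the gene body in black above. The x axis is the distance in kb from the middle of the gene body. NODAL, GDF3, TDGF1, LEFTY1 and LEFTY2 have no LAD in this range in either state. The end of the long LAD inside ACVR2A differs by 1 window, and other LADs follow after a short gap.

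NODAL, its relatives and its inhibitors shared a setting without LADs. NODAL (chromosome 10, 70431936 to 70447951), GDF3 (chromosome 12, 7689784 to 7695775), TDGF1 (chromosome 3, 46574535 to 46582457), LEFTY1 (chromosome 1, 225886282 to 225889146) and LEFTY2 (chromosome 1, 225936603 to 225941220) were covered at 0% in both states, and their 1 Mb held 0% LAD in both. Of all protein-coding genes, 76.2% in naive and 79.2% in primed had no covered base, and 53.4% and 59.4% had no LAD in their 1 Mb, so these placements are those of most genes. NODAL, the ligand that patterns the embryonic axes, lay 2.71 Mb from the nearest LAD in naive and 2.61 Mb in primed, in LAD-free stretches of 6.67 and 8.60 Mb. Of protein-coding genes with no covered base (15212 in naive, 15825 in primed), 69.2% and 67.2% lay nearer to a LAD than NODAL. GDF3, a ligand of the pluripotent cell, lay 1.80 Mb from a LAD in naive and 1.81 Mb in primed (58.4% and 57.0% lay nearer), and neither list had a LAD between it and the start of the sequence of chromosome 12. DPPA3, a maternal factor gene 15.7 kb from GDF3, and NANOG, a core pluripotency gene 93.6 kb from it, were also at 0% in both.

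TDGF1 encodes Cripto, the membrane-anchored co-receptor of NODAL and GDF3. It lay 4945 kb from the nearest LAD in naive and 885 kb in primed, where 82.7% and 37.4% of genes with no covered base lay nearer. This gap rested on 1 primed window of 10 kb (45680001 to 45690000 on chromosome 3): without LADs under 50 kb the primed distance was 6595 kb. LEFTY1 and LEFTY2 are 47.5 kb apart, with 1 protein-coding gene between them, so that they lie in 1 locus. LEFTY1 lay 1.85 Mb from a LAD in naive and 0.576 Mb in primed, and LEFTY2 1.90 and 0.627 Mb (59.0% and 28.5% of such genes lay nearer than LEFTY1). The primed LAD nearest to them was 30 kb long (225280001 to 225310000), one of several over DNAH14, an axonemal dynein gene, which had 0% of its body in LADs in naive and 51.1% in primed. Without LADs under 50 kb the distances of LEFTY1 were 3326 kb in naive and 646 kb in primed. Without LADs under 100 kb they were 3426 kb and 3286 kb, so the gap between the states depended on the filter. With 1 Mb either side of the gene middle, LADs held 0% in naive and 12.0% in primed for both LEFTY genes. MIXL1, a homeobox gene induced by NODAL and activin, 282 kb from LEFTY2, was at 0% in both. LEFTY1 and LEFTY2 are close paralogues and TDGF1 has processed copies elsewhere in the genome. The handling of reads with several matches was not given in the sources used here, and its bearing on the absence of LADs at these genes was not tested.

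The genes in LADs were also the long ones. The 4 genes in naive LADs spanned 86.3 to 226 kb, and the 6 outside LADs of both states 2.87 to 50.5 kb, against a median of 24.2 kb over protein-coding genes. Gene length and LAD placement go together at large: of 4180 protein-coding genes of 80 kb or longer, LADs held 36.9% in naive and 32.4% in primed, and 6.39% were in naive LADs only, while of 8983 under 20 kb the shares were 12.6%, 12.2% and 2.40%. These length limits were set after the values of the 10 genes were seen. The part of gene length in this split was not tested. Most neighbouring genes were placed like the gene they lie beside, which largely restates the LAD share of the same 1 Mb. For comparison, 79.3% of all protein-coding genes were in LADs of neither state. NODAL, GDF3, TDGF1, TGFBR1 and LEFTY2 had 15, 16, 18, 6 and 12 protein-coding neighbours in their 1 Mb, of which 0 were in LADs of either state. LEFTY1 had 14, of which 1 was in primed LADs only. TGFB2, TGFBR2 and ACVR2A had 1, 2 and 2, all in LADs of both states. Of the 8 neighbours of TGFBR3, 5 shared its placement in naive LADs only.

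Beyond these 10 genes, 66 other genes of the pathway were placed in the same way (17 ligands, 9 receptors, 4 co-receptors, 12 antagonists and latency proteins, 2 convertases, 8 SMADs, 10 nuclear partners and regulators, 4 targets). In each state 12 of the 66 were in LADs, or 18.2%, beside 18.9% and 17.3% of all protein-coding genes, so the wider pathway stood near the background. In all, 9 were in LADs of both states, 3 in naive LADs only and 3 in primed LADs only. The genes in both were the ligands MSTN (myostatin), INHBA (activin A subunit), BMP2 and BMP5, the receptors ACVR1C (a NODAL type I receptor) and BMPR1B, the antagonist CER1, LTBP1, which holds TGF-beta latent in the matrix, and SMAD1 of the BMP branch. All but CER1 (50.5% in naive, 100% in primed) and SMAD1 (76.5% and 100%) were covered at 97.5% or more in both. SMAD2, SMAD3 and SMAD4, which carry the NODAL and TGF-beta signal, were at 0% in both, as were FOXH1, the partner of SMAD2 at NODAL targets, TGFB1 and TGFB3, ACVR1B, ACVR2B and BMPR2. None of the 10 nuclear partners and regulators and none of the 4 targets had a covered base. The target EOMES nonetheless lay 5.95 kb from a LAD in each state, with 96.0% (naive) and 82.0% (primed) of its 1 Mb in LADs. Its call changed when LADs less than 50 kb apart were joined. So did those of the antagonist FST and the co-receptor gene CFC1, which had no covered base. FST lay 0.628 kb from a naive and 60.6 kb from a primed LAD, and CFC1 0.425 kb and 610 kb. The call of SMAD1 changed without LADs under 100 kb.

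The 6 other pathway genes in LADs of 1 state only were BMP6, GDF6 and SMAD9 in naive and BMP4, NOG and ACVR1 in primed. BMP6 (chromosome 6, 7726099 to 7881728) had 98.9% of its body in LADs in naive and 0% in primed, with its start 6.10 kb inside a naive LAD and the nearest primed LAD, a single window, 58.3 kb from the gene. GDF6 (chromosome 8, 96142333 to 96160806), a BMP-like ligand, was covered at 58.5% and 0%, yet in primed it lay only 2.33 kb from a LAD of 840 kb. SMAD9 (chromosome 13) was at 78.9% and 40.6%. Its first listed start went the other way, 0.237 kb outside a naive LAD edge and 9.76 kb inside a primed LAD. In the reverse direction BMP4 (chromosome 14, 53949736 to 53956891), a ligand that drives mesoderm and extraembryonic fates, was at 3.70% in naive and 100% in primed. Its first listed start lay 5.05 kb outside a naive LAD edge and 215 kb inside a primed LAD of 620 kb. NOG (chromosome 17, 56593699 to 56595611), which encodes the BMP antagonist noggin, was at 0% and 100%, in a primed LAD of 1 window and in a naive gap with LADs 3.70 kb and 4.39 kb away on its sides. ACVR1 (chromosome 2, 157736446 to 157876330), a type I receptor of BMPs, was at 31.1% and 100%, in a primed LAD of 5.25 Mb that also holds ACVR1C. Of these 6 calls BMP6 kept its own under each of 5 settings that joined or filtered LADs, as TGFBR3 did. BMP4, GDF6 and ACVR1 kept theirs under 2, SMAD9 under 1 and NOG under 0.

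**Figure D4:**
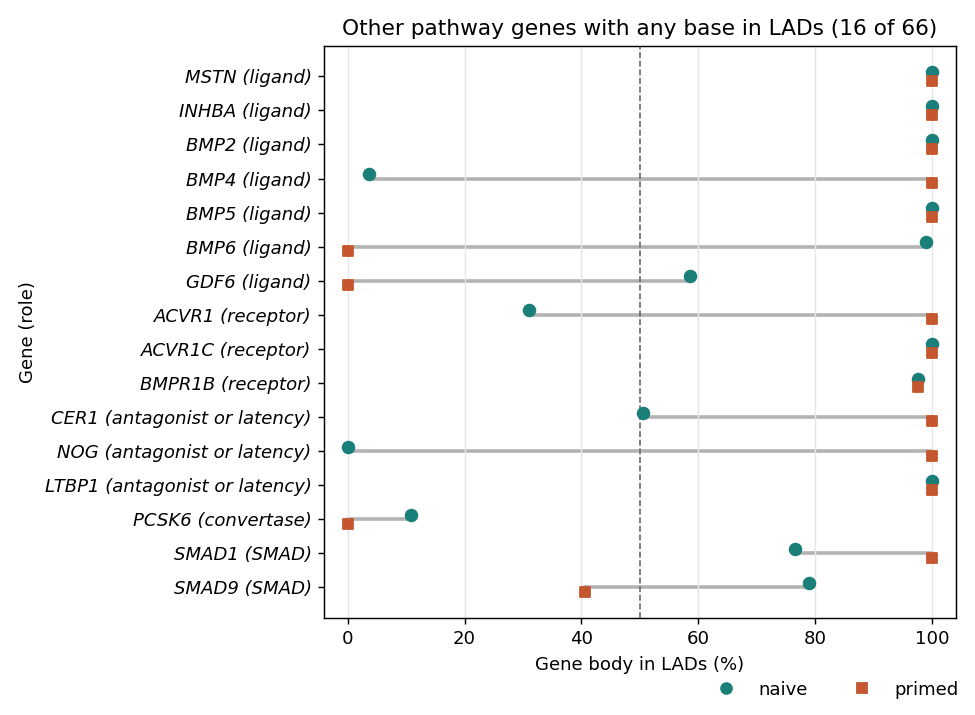
Gene body share in LADs, in percent, for the 16 of 66 other pathway genes with any covered base, with naive as circles, primed as squares and a dashed line at 50%. BMP6, GDF6 and SMAD9 are past the line in naive only, and BMP4, ACVR1 and NOG in primed only.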

How the data were processed

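LADs were mapped by LMNB1 pA-DamID with Dam-only controls, in 3 libraries of each kind per state. The authors deposited 1 interval list per state, with chromosome, start and end and no score. A list's state was read from its file name. The labels call the lists by a name other than that of the files used, and whether they are the same lists was not given in the sources used here. Per the submitters' processing notes, SICER, BWA and SAMtools 1.10 were used on the build hg38. Thresholds, the sequence of steps and the way libraries were joined were not given in the sources used here. The deposited ends were multiples of 10 kb. A window with few mapped reads looks like one that does not touch the lamina.

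Gene bodies were those of RefSeq on GRCh38.p14 (the primary assembly of hg38), with 1-based coordinates, on the autosomes and X. Covered share, distance from gene body to nearest LAD, distance from gene start to LAD edge, and LAD share of 500 kb either side of the gene middle were computed. A gene with at least 50% covered was called in a LAD. No test was made. The 10 genes, the lists of 66 other genes and the rules for naming genes were chosen with earlier results of these data known. All of the 10, each of the 66 in LADs of either state, up to 6 nearest neighbours of a gene in LADs of 1 state only and its 3 nearest in pattern were to be named. Not reported here, and in no count, are 2 further genes of the lists. Genes named outside this rule (such as C1orf146, GLMN, DNAH14, MIXL1, NANOG, DPPA3, RRP15, GADL1, ORC4, and pathway genes at 0%) were chosen after their values were seen. Alternatives changed the gap and length limits of LADs, the covered share, the window and the genes counted. Functions were tested on simulated data. Python 3.11.15, numpy 2.4.6, pandas 2.3.3 and matplotlib 3.10.9 were used.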

Additional observations from a re-analysis of the deposited data

How the results depend on the processing

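The counts of the 10 genes in LADs (4 in naive, 3 in primed, 1 in naive only, 0 in primed only) were the same under 7 of 8 alternatives: closing gaps of under 50 or of under 100 kb, dropping LADs shorter than 50 or than 100 kb, closing gaps and then dropping, any overlap, and the window of the gene start. LEFTY1 and LEFTY2 had no listed start and were set as outside LADs under the last of these, so their placement could not change there. With at least 90% of the gene covered the counts were 3, 2, 1 and 0, since ACVR2A was no longer called. The 66 other genes moved more. With LADs less than 100 kb apart joined, 18 were in naive LADs in place of 12, and 0 in primed LADs only in place of 3. Those in primed LADs only numbered 0 with LADs less than 50 kb apart joined, 0 with LADs under 100 kb then left out, 1 with any overlap and 5 with at least 90% covered, and with 90% those in naive LADs only numbered 1. The median 1 Mb share over the 10 genes was 4.0% in naive without LADs under 50 kb, 0% in both states without LADs under 100 kb, 3.89% (naive) and 0% (primed) with 250 kb either side, and 11.8% (primed) with 1 Mb either side. Centred on the gene start it was 52.8% in naive, since the 2 LEFTY genes then drop out. Of all annotated genes in place of protein-coding ones, 28.4% were in naive and 25.2% in primed LADs. No paired analysis was possible because each state has 1 list and the replicate numbers of the libraries are not kept in it, and for the same reason no replicate could be left out. The depth behind each LAD is unknown, so a missing LAD is not shown to be a missing contact.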
